A study of Mus musculus with 10 samples.

Results

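Ephrins, semaphorins, Slits and netrins, with the receptors that bind them, were followed here in whole mouse embryos at embryonic day 7.5. The genes were taken by symbol alone: Eph receptors of the A and B classes, ephrins of the A and B classes, semaphorins of classes 3 to 7, plexins, neuropilins, Slits, Robos, netrins and Unc5 receptors. The deposited table listed 65 such genes among 20006. RNA of 10 embryos was sequenced in bulk, 1 library per embryo: 5 were labelled WT and 5 were labelled Axin1;Axin2 mutant, with the letters DKO in their library names. The labels state no strain, sex or litter, and they do not describe the Axin1 and Axin2 alleles; both groups had the same stage and tissue label. Axin1 and Axin2 are scaffold proteins of the complex that marks beta-catenin for destruction, and the comparison asks how the guidance genes differed when both scaffolds were mutated.

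These families were named for steering growing axons, yet most act wherever cells must attract, repel or sort from one another. Ephrins and Eph receptors sit on the surfaces of touching cells and signal into both, and they keep neighbouring cell populations apart during gastrulation, somite formation and vessel growth. Semaphorins act through plexins, and the secreted class 3 forms mostly need a neuropilin as the binding partner. Slits are secreted and usually repel cells that carry Robo receptors. Netrins are laminin-related secreted proteins that repel through Unc5 receptors and attract through Dcc.

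Of the 65 genes, 59 had a mean over all embryos of at least 10 scaled counts (read counts divided by the authors' library factor) and were tested. Of these, Epha5, Epha10, Ntn4 and Robo3 reached that mean through 1 group only. The other 6 fell under that level: Epha3, Sema3c, Sema3d, Sema3g, Ntn5 and Unc5d. In the comparison of mutant with WT embryos, 32 genes passed the threshold of an adjusted p of 0.05 (limma on log2(scaled count + 1), Benjamini-Hochberg over all 15429 genes tested): 7 were higher and 25 lower in mutants. That is 11.9% of the guidance genes higher, against a background of 11.4% of all genes tested, and 42.4% lower, against a background of 13.8%. The share that was higher was thus near the background, and the share that was lower was not. The median log2 fold change was -0.64 over the 59 guidance genes and 0.01 over all genes tested. Values of the 2 groups did not overlap for 20 of the 59 guidance genes, against 17.1% of all genes tested. Of 30 ligands, 1 was higher and 12 were lower, and of 29 receptors, 6 were higher and 13 were lower. The difference between ligands and receptors was not tested.

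All 7 higher genes except 1, the ephrin Efnb3, encode receptors: Epha5, Ephb1, Nrp1, Nrp2, Robo2 and Unc5c. Among the 25 lower genes were every Slit, the netrin Ntn1 and the semaphorins Sema4f, Sema5b, Sema6a, Sema6b and Sema6c. They also included the receptors Epha1, Ephb2, Ephb3, Ephb4, Robo1, Robo3 and 4 plexins. Of the called genes, 5 were at least 2-fold higher and 18 at least 2-fold lower.

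**Figure D1:**
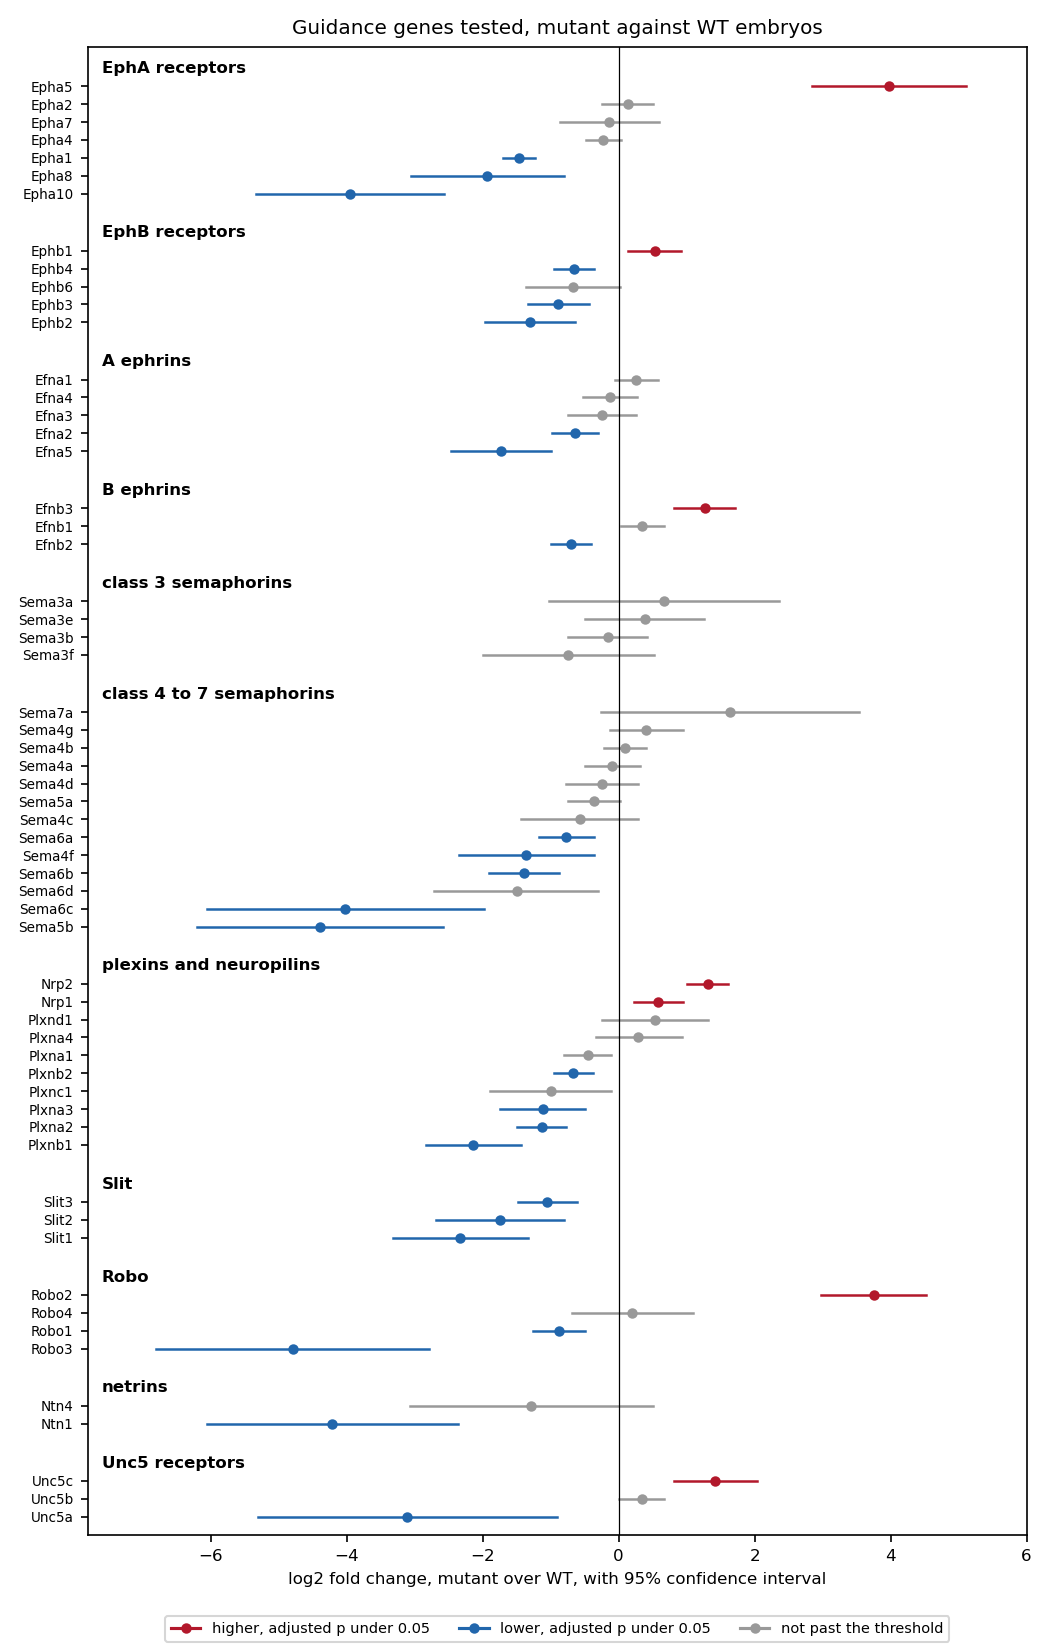
Log2 fold change of mutant over WT embryos for the 59 guidance genes tested, grouped by role, with 95% confidence intervals from limma; colours mark adjusted p under 0.05. Epha5 (3.98) and Robo2 (3.75) lay farthest to the right, and Robo3 (-4.79), Sema5b (-4.39) and Ntn1 (-4.21) farthest to the left.

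Library depth ranged from 20744547 reads (WT 3) to 28505209 reads (WT 1), so that 3 reads, the level that a count of 0 allows, corresponded to 2.51 to 3.41 scaled counts. Axin1 was 3314 to 3843 scaled counts in WT embryos and 819.5 to 1319 in mutants 1, 2, 3 and 5, but 2336 in the library labelled mutant 4, between the groups. Axin2 was not called (log2 fold change -0.01, SE 0.17, adjusted p = 0.981), and reads counted over a whole gene do not show an allele that still makes RNA. Mutant 4 also stood apart across all genes: its first principal component was 16.6, between those of WT embryos (-73.3 to -51.8) and other mutants (62.4 to 78.4), and its second was -91.3 against -9.69 to 29.3 in the other 9 embryos. Where mutant 4 lay within the WT range of a called gene of these families, the value without it is also given.

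Marker genes of the embryo's tissues moved with the groups and with mutant 4. Of 11 paraxial mesoderm markers, 10 were lower in mutants; their summed level was 7151 to 9356 scaled counts in WT embryos, 224 to 384 in mutants 1, 2, 3 and 5, and 3181 in mutant 4. Epiblast (6 of 7), ectoderm (5 of 10, with 1 higher) and node (5 of 7) markers were also lower, with summed levels of 40561 to 55420, 2126 to 2806 and 2336 to 2615 in WT embryos and 14014 to 17935, 451 to 1412 and 759 to 1231 in mutants. Of 12 endothelial and blood markers, 3 were higher (Tie1, Lmo2 and Runx1) and none lower, and of 8 allantois markers 3 were higher (Tbx4, Bmp4 and Itga4) and none lower. Their sums were 4568 to 6042 and 13546 to 18152 in WT embryos and 8008 to 11070 and 19148 to 29724 in mutants. The allantois sum of 29724 was that of mutant 4. Hand1, which is in both the allantois and the trophoblast list, was 20275 there and 6728 to 11578 in the other embryos. The endothelial and blood members differed among themselves: Lmo2 was 632.5 to 955.7 in WT embryos and 1876 to 3717 in mutants, while Etv2, not called, was 396.3 to 716.6 and 72.81 to 536.2. Trophoblast markers (0 of 11 called) summed to 38376 to 50471 in WT embryos, 42865 to 46877 in mutants 1, 2, 3 and 5, and 92793 in mutant 4. The members differed, as Elf5, Cdx2, Eomes and Bmp8b were lowest in mutant 4. Visceral endoderm markers (2 of 9 higher) summed to 102320 to 141677, 148271 to 155618 and 86927 in the same order, and markers of maternal tissue (2 of 9 higher) to 4777 to 17880, 4088 to 13794 and 8630. The maternal sums include the globins Hba-a1 and Hbb-bs, not called, at 8259 and 7597 in WT 1. The higher maternal genes were Prl8a2 and Prl3c1. Prl8a2 was 17.8 to 300.9 in WT embryos and 347.3 to 7017 in mutants, without overlap. Prl3c1 was 0 to 22.7 and 12.3 to 221.8. No marker of parietal endoderm (6 genes) or neural crest (5 genes) was called. The parietal endoderm sum was 23762 to 41632 in WT embryos, 24111 to 27499 in mutants 1, 2, 3 and 5, and 42095 in mutant 4. Thbd and Nid1 were highest in mutant 4, at 2280 and 6010. Lamb1, Sparc, Col4a1 and Srgn of mutant 4 lay within the range of the other embryos. Erg, Pax6, Foxd3, Cd52 and Tyrobp were under the level for testing but are counted in the sizes of their lists. Of all genes tested, 11.4% were higher and 13.8% lower. No marker of these lists was at 0 in all 10 embryos. In RNA from whole embryos, fewer cells of a type and less RNA per cell cannot be told apart, and the part of these tissues in the results below was not tested.

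Promoters are shown for a receptor pair that moved in opposite directions, Robo1 (lower) and Robo2 (higher), and for Nrp2, the only higher gene with the searched motif. They come from RefSeq (GRCm38.p6), each from 250 bases before to 50 from the annotated start, read 5′ to 3′ on the gene's strand; the single capital near the end is the start base, and the run of capitals in Nrp2 is the motif.
Nrp2 (chr1:62703067-62703366, plus strand): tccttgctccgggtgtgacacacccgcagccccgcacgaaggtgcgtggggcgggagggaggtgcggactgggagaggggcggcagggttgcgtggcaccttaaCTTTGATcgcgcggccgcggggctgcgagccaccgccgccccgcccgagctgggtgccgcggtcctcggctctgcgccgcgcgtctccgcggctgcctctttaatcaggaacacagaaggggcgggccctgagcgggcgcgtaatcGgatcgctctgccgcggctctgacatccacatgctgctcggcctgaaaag
Robo1 (chr16:72662899-72663198, plus strand): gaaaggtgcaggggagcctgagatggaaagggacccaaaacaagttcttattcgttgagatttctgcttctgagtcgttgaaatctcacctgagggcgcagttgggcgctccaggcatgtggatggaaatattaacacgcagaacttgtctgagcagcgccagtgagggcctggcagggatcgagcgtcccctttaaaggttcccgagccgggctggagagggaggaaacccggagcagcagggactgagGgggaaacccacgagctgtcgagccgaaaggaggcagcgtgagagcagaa
Robo2 (chr16:74411776-74412075, minus strand): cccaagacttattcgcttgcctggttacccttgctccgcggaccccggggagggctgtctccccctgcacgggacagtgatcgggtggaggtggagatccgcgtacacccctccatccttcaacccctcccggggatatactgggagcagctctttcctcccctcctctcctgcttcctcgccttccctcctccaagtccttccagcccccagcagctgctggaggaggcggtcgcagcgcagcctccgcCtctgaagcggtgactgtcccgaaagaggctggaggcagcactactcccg
CTTTGAT and CTTTGAA, short forms of the site that TCF/LEF factors (the DNA-binding partners of beta-catenin) bind, were searched on both strands; the motifs differ only in their last base. RefSeq promoters were found for 56 of the 65 genes, and 3 of them (5.36%) held a match: Nrp2 (CTTTGAT, plus strand, 146 bases before the start), Epha2 (CTTTGAA, 209 bases before) and Sema3e (CTTTGAA, minus strand, 119 bases before). The share was 6.97% among tested genes in the same table and 9.88% among all its genes. The GENCODE start of Robo1 lies upstream of the RefSeq start shown, at 72308306 on chromosome 16, and 2 further RefSeq starts of Robo2 are not shown. No promoter entry was found for Efnb3, Ntn1, Plxna1, Plxna4, Sema3b, Sema3f, Sema6a, Slit1 and Unc5d. A match describes these letters only.

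Eph receptors: 8 class A receptors were listed, 7 were tested, and 1 rose and 3 fell in mutants. Epha1, a receptor of A ephrins, was the most abundant of them per kilobase of exon, at 582 ± 36.1 scaled counts per kb in WT embryos and 212 ± 31.2 in mutants (SD, n = 5 each). Epha1 (chr6:42358487-42373268, minus strand) held 2376, 2085, 2457, 2238 and 2270 scaled counts in WT embryos 1 to 5 and 970.1, 779, 739, 961 and 719 in mutants 1 to 5. All mutants lay below all WT embryos, mutant 4 included. Its log2 fold change was -1.46 (SE 0.11, adjusted p = 8.36e-06), which left 36.5% of the WT mean.

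Epha5, which in the nervous system acts in axon mapping, moved the other way. Its values were 4.18, 6.04, 3.41, 20.2 and 10.3 scaled counts in WT embryos 1 to 5 and 130.2, 112, 129, 56.6 and 337 in mutants 1 to 5. Every mutant exceeded every WT embryo, with mutant 5 well above the rest and mutant 4 the lowest of the mutants. For Epha5 the log2 fold change was 3.98 (SE 0.52, adjusted p = 0.000327), from a WT mean under 10 scaled counts. Epha5 still made up only 2.39% ± 1.69 of the class A receptor level per kb in mutants, up from 0.0685% ± 0.0535 in WT embryos, while the share of Epha1 went from 75.4% ± 2.82 to 54.5% ± 4.34. The summed class A level per kb was 771 ± 36.8 in WT embryos and 389 ± 34.9 in mutants, and the groups did not overlap.

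Epha8 and Epha10 were low genes that fell. Epha8 was 65.5 ± 32.4 scaled counts in WT embryos and 16.8 ± 7.94 in mutants (log2 fold change -1.93, SE 0.52, adjusted p = 0.018), and without WT 5 it missed the threshold (adjusted p = 0.0509). Mutant 4 was within the WT range of Epha8, and without it the log2 fold change was -2.11 (SE 0.54, adjusted p = 0.0119). Epha10, a receptor whose kinase domain is thought to be inactive, was 23.3 ± 7.25 in WT embryos and had no reads in mutants 2 to 5 (log2 fold change -3.95, SE 0.64, adjusted p = 0.00124; with a pseudocount of 5 it was -2.21). Epha2, Epha4 and Epha7 were not called, with log2 fold changes of 0.13, -0.23 and -0.14. Epha4, a receptor that binds ephrins of both classes, was 544 to 768 in WT embryos and 544 to 602 in mutants, so the groups overlapped. Epha3 was under the level for testing: it was 3.34 to 14.8 scaled counts in WT embryos, 17.2 in mutant 4 and without reads in the other mutants.

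**Figure D2:**
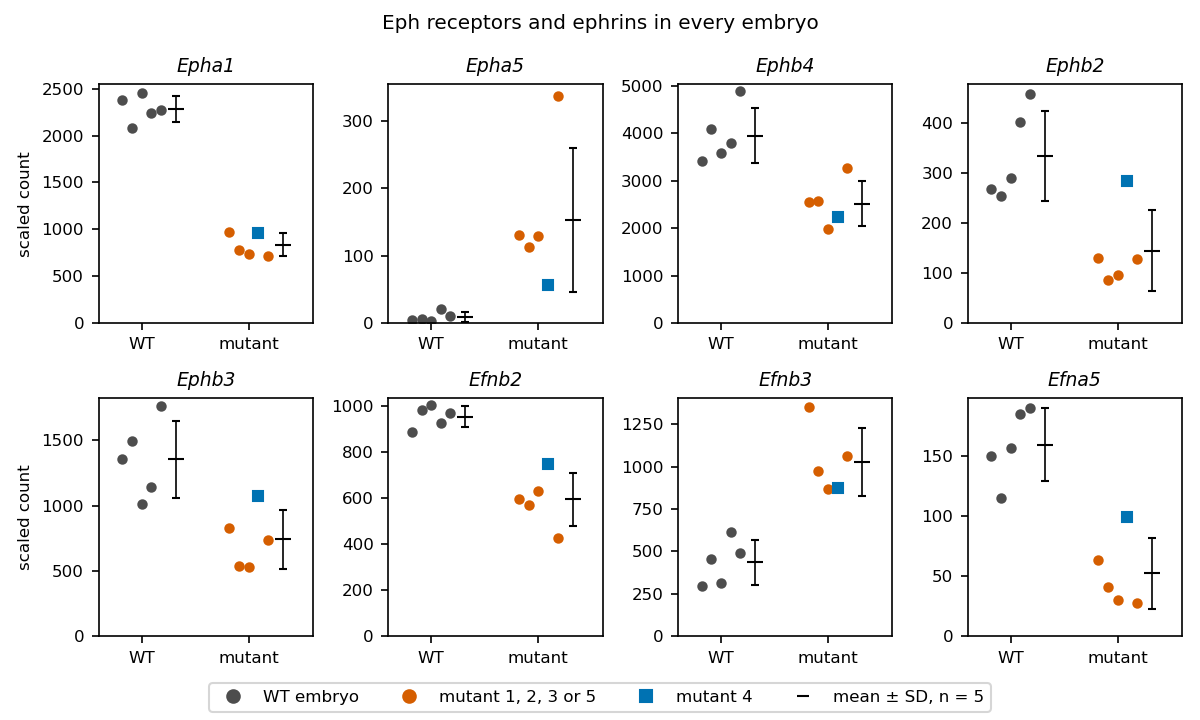
Scaled counts of Eph receptors and ephrins in every embryo, with the mean ± SD of each group (n = 5); mutant 4 is a square. Epha1, Ephb4, Efnb2 and Efna5 were lower and Epha5 and Efnb3 higher in every mutant than in every WT embryo, while Ephb2 and Ephb3 of mutant 4 lay within the WT range.

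Of the 5 class B receptors, 3 fell and 1 rose. Ephb4, the ephrin-B2 receptor that marks veins in the later embryo, was the guidance gene with the highest level per kb in WT embryos (851 ± 125). It held 3409, 4083, 3578, 3788 and 4885 scaled counts in WT embryos 1 to 5 and 2555, 2562, 1973, 2244 and 3263 in mutants 1 to 5. The groups did not overlap, and the log2 fold change was -0.66 (SE 0.14, adjusted p = 0.00504).

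Ephb2 and Ephb3, receptors of B ephrins that sort cells in the gut and the nervous system, followed a different pattern in mutant 4. Ephb2 read 268, 255, 291, 402 and 458 scaled counts in WT embryos and 130.2, 86.2, 96.3, 285 and 127 in mutants, in order of number. Mutant 4 lay inside the WT range and the other 4 mutants below it. For Ephb2 the log2 fold change was -1.30 (SE 0.30, adjusted p = 0.00905) with mutant 4 and -1.58 (SE 0.22, adjusted p = 0.000298) without it. Ephb3 read 1355, 1495, 1012, 1147 and 1762 in WT embryos and 829, 539, 533, 1075 and 739.8 in mutants, with mutant 4 again within the WT range. Its log2 fold change was -0.89 (SE 0.21, adjusted p = 0.00905), or -1.04 (SE 0.18, adjusted p = 0.00147) without mutant 4.

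Ephb1, a close relative of Ephb2, rose from 260.3 ± 49.1 to 376 ± 74.6 scaled counts (log2 fold change 0.53, SE 0.18, adjusted p = 0.0475). The groups overlapped, and the call did not hold without mutant 4 (adjusted p = 0.084), nor without WT 1, 2, 3 or 5 or mutant 1, 3 or 5 (adjusted p = 0.0502 to 0.107). The Ephb1 call was also lost with edgeR (adjusted p = 0.0529), TMM or upper-quartile scaling, no filter and no intensity trend. It was lost in 13 of the 21 alternatives. Ephb6, a kinase-inactive receptor, was not called (log2 fold change -0.67, SE 0.32, adjusted p = 0.142).

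Ephrins: among the 5 A ephrins, which are tethered to the membrane by a lipid anchor, 2 fell and none rose. Efna5 held 149.6, 115, 157, 185 and 189.6 scaled counts in WT embryos 1 to 5 and 63.2, 41.2, 30.2, 99.0 and 27.5 in mutants 1 to 5. The groups did not overlap, mutant 4 was the highest mutant, and the log2 fold change was -1.73 (SE 0.33, adjusted p = 0.00335). Efna2 held 696, 1029, 685, 674 and 1089 in WT embryos and 518, 467, 558, 503 and 569 in mutants, again without overlap. Its log2 fold change was -0.64 (SE 0.16, adjusted p = 0.0115). Efna1, Efna3 and Efna4 were not called, with log2 fold changes of 0.26, -0.25 and -0.13. The summed A ephrin level per kb was 1749 ± 350 in WT embryos and 1535 ± 228 in mutants, with overlapping ranges.

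The 3 B ephrins, which span the membrane, went in different directions. Efnb3 rose: it was 297, 458, 316, 616 and 492 scaled counts in WT embryos 1 to 5 and 1351, 972, 869, 872 and 1064 in mutants 1 to 5. All mutants were above all WT embryos, and the log2 fold change was 1.27 (SE 0.21, adjusted p = 0.00127). Efnb2, the partner of Ephb4, fell from 885, 980.2, 1004, 925 and 966 in WT embryos to 594, 568, 632, 749 and 426 in mutants. The groups did not overlap, and the log2 fold change was -0.70 (SE 0.14, adjusted p = 0.00354). Efnb1, which is needed for sorting of cells in the skeleton and face, had the highest level per kb of any guidance gene in mutants (951 ± 119, against 755 ± 172 in WT embryos). It was not called with all embryos (log2 fold change 0.35, SE 0.15, adjusted p = 0.102) and was higher without mutant 4 (0.42, SE 0.15, adjusted p = 0.0484). Per kb, Efnb3 thus went from 13.3% ± 3.28 to 23.6% ± 2.33 of the B ephrin level, and Efnb2 from 13.8% ± 2.35 to 6.5% ± 1.86.

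Semaphorins: none of the 4 class 3 semaphorins tested was called with all 10 embryos. Sema3f, the secreted ligand of Nrp2, held 989, 1188, 724, 815 and 1026 scaled counts in WT embryos 1 to 5 and 331, 256, 336, 3710 and 514 in mutants 1 to 5. Mutant 4 was above every other embryo, and the other 4 mutants were below every WT embryo. For Sema3f the log2 fold change was -0.74 (SE 0.58, adjusted p = 0.377) with mutant 4 and -1.42 (SE 0.20, adjusted p = 0.000326) without it. Sema3e, the ligand of Plxnd1 in vessel patterning, was 913 in mutant 4, 154 to 301 in the other mutants and 159 to 288 in WT embryos. Sema3a, a ligand of Nrp1, was 139.5 in mutant 4, 5.75 to 40.8 in the other mutants and 6.04 to 22.5 in WT embryos. Neither was called with or without mutant 4, and Sema3b had a log2 fold change of -0.16. Sema3c, Sema3d and Sema3g were under the level for testing, at means of 6.57, 15.2 and 6.82 scaled counts in WT embryos and 6.42, 3.55 and 3.53 in mutants.

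Of the 13 membrane-bound or anchored semaphorins of classes 4 to 7, 5 fell and none rose. Sema5b, a transmembrane semaphorin with thrombospondin repeats, held 122, 138, 196, 131 and 241 scaled counts in WT embryos 1 to 5 and 3.77, 0, 12.3, 62.7 and 5.70 in mutants 1 to 5. The groups did not overlap, although mutant 4 was about 5-fold above the next mutant (-4.39 log2 fold change, SE 0.83, adjusted p = 0.00301). Without mutant 4 the Sema5b value was -5.15 (SE 0.61, adjusted p = 9.36e-05); by edgeR and DESeq2 with all embryos it was -3.30 (adjusted p = 0.0155 and 0.000246). Sema6c held 228, 343, 292, 302 and 471 in WT embryos and 32.1, 36.4, 0, 99.0 and 22.8 in mutants. Again no mutant reached the WT range, and the log2 fold change was -4.02 (SE 0.94, adjusted p = 0.00908), or -4.61 (SE 0.87, adjusted p = 0.00215) without mutant 4 and -3.10 by edgeR and DESeq2 (adjusted p = 0.00816 and 0.00143). Sema6b, a ligand of class A plexins, held 374, 634, 504, 348 and 546 in WT embryos and 169.9, 127, 159, 294 and 177 in mutants. Its groups did not overlap, and its log2 fold change was -1.39 (SE 0.23, adjusted p = 0.00157).

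Sema6a, which signals through Plxna2 and Plxna4, was 1552 ± 135 in WT embryos and 946 ± 314 in mutants (log2 fold change -0.77, SE 0.18, adjusted p = 0.0101), with mutant 4 at 1455, inside the WT range. Without mutant 4 the Sema6a value was -0.94 (SE 0.13, adjusted p = 0.000308). Sema4f was 39.2 ± 5.11 and 17.97 ± 13.1 (log2 fold change -1.36, SE 0.45, adjusted p = 0.0451). The Sema4f call did not hold without any 1 of the WT embryos or of mutants 1 and 2 (adjusted p = 0.0608 to 0.101). With edgeR and DESeq2 Sema4f was not called either (adjusted p = 0.0957 and 0.0759). Its mutant values spanned 5.75 to 38.0 scaled counts.

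A further 2 class 4 to 7 semaphorins missed the threshold with a log2 fold change of at least 1 in size. Sema6d, a ligand of Plxna1 in heart development, held 281, 213, 380.4, 158 and 172 scaled counts in WT embryos and 43.4, 31.6, 84.0, 396 and 69.3 in mutants. Mutants 1, 2, 3 and 5 were below all WT embryos and mutant 4 above all of them. The log2 fold change was -1.50 (SE 0.56, adjusted p = 0.066) with mutant 4 and -2.08 (SE 0.33, adjusted p = 0.000731) without it. Sema7a, a lipid-anchored semaphorin, held 30.9, 7.04, 5.68, 21.2 and 18.8 in WT embryos and 12.3, 37.3, 14.6, 502 and 53.2 in mutants. Only mutant 4 was far outside the range of the rest, and the log2 fold change was 1.63 (SE 0.87, adjusted p = 0.19), or 0.77 (SE 0.58, adjusted p = 0.348) without mutant 4.

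Sema4c and Sema4d, ligands of class B plexins, shared the pattern of Sema3f and Sema6d. Sema4c was 836 to 1230 in WT embryos, 397 to 606 in mutants 1, 2, 3 and 5, and 2445 in mutant 4. Without mutant 4 it was lower by the test (log2 fold change -1.03, SE 0.15, adjusted p = 0.000409). Sema4d was 708 to 845, 477 to 574 and 1378, and was also lower without mutant 4 (-0.52, SE 0.11, adjusted p = 0.00481). Sema4a, Sema4b, Sema4g and Sema5a were not called, with log2 fold changes from -0.37 to 0.40. The summed class 4 to 7 level per kb was 801 to 991 in WT embryos, 448 to 532 in mutants 1, 2, 3 and 5, and 1326 in mutant 4.

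**Figure D3:**
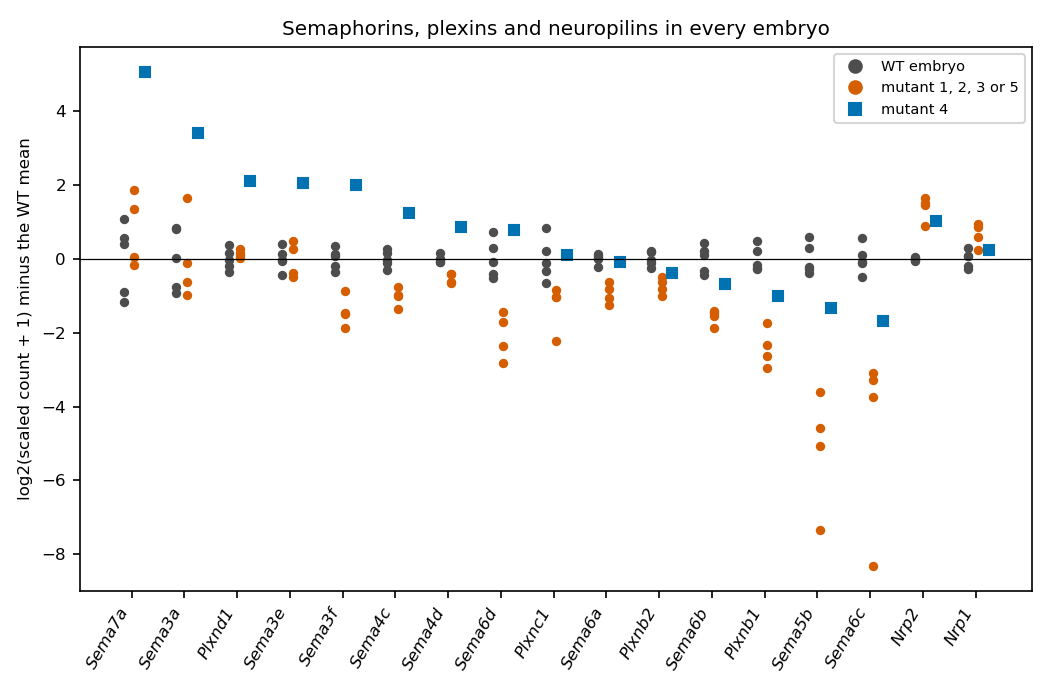
Semaphorins, plexins and neuropilins in every embryo, as log2(scaled count + 1) minus the WT mean of each gene; mutant 4 is a square. Mutant 4 lay above all other embryos for Sema7a, Sema3a, Plxnd1, Sema3e, Sema3f, Sema4c, Sema4d and Sema6d, and above the other mutants for Sema6a, Plxnb1, Sema5b and Sema6c, which were lower in mutants.

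Mutant 4 was the highest of all 10 embryos for 9 of the 59 guidance genes tested (15.3%, against 12.3% of all genes), 8 of which are semaphorins or plexins and the other Ephb1. It was above all other mutants for 32 of the 59 (54.2%, against 28.0% of all genes). It was below all of them for 8, a count given without the share over all genes. Among the 25 genes that fell, it was above the other mutants for 18 and within the WT range for 8: Epha8, Ephb2, Ephb3, Sema6a, Slit2, Robo3, Ntn1 and Unc5a. These counts are given without the shares over all genes called lower. Mutant 4 also lay between the groups on the first principal component of all genes, so they need not be particular to guidance genes. Trophoblast markers in mutant 4 included Prl3d1 at 9979, Krt7 at 6878, Tfap2c at 9354 and Gata3 at 2060 scaled counts, and endothelial markers Cdh5 at 1824 and Pecam1 at 1657. In the other 9 embryos these ranged from 59.1 to 2703, 382 to 1299, 2040 to 3655, 337 to 650, 26.2 to 169.7 and 122 to 373. Other markers of the same lists went the other way. Elf5, Cdx2, Eomes and Bmp8b were lower in mutant 4 than in the other 9 embryos, at 145.5, 1434, 491.2 and 611.4 scaled counts. Lmo2 and Runx1, at 1876 and 808.5, were lower there than in the other mutants. Of the parietal endoderm list, Thbd and Nid1 were highest in mutant 4, and the others lay within the range of the other embryos. The part of all these markers in the semaphorin values was not tested. Without mutant 4, 7 guidance genes were higher and 31 lower of 58 tested, against a background of 13.4% and 16.2% of all genes. Of the 32 called genes, 31 kept their call, Ephb1 lost it, and Efnb1 (higher), Plxna1, Plxnc1, Sema3f, Sema4c, Sema4d and Sema6d (lower) gained one.

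Plexins and neuropilins: both neuropilins rose, and 4 of the 8 plexins fell. Nrp2 (chr1:62703285-62818695, plus strand), a coreceptor of Sema3f and of lymphatic growth factors, held 814, 789, 779, 824 and 846 scaled counts in WT embryos 1 to 5 and 2328, 1510, 2227, 1646 and 2539 in mutants 1 to 5. WT embryos were close to one another and all mutants were above them. The log2 fold change was 1.31 (SE 0.14, adjusted p = 9.52e-05), a ratio of means of 2.53. Nrp1, the coreceptor of Sema3a and of VEGF-A, rose from 1059 ± 169.9 to 1600 ± 371 (log2 fold change 0.58, SE 0.16, adjusted p = 0.0234). The groups overlapped for Nrp1, with mutant 4 in the WT range and a value of 0.66 (SE 0.16, adjusted p = 0.00942) without it. The Nrp1 call did not hold without WT 1, WT 2, mutant 1 or mutant 5 (adjusted p = 0.053 to 0.0585).

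Plxnb1, the receptor of Sema4d, held 1076, 759, 821, 774 and 1296 scaled counts in WT embryos 1 to 5 and 276, 147, 119, 458 and 181 in mutants 1 to 5. The groups did not overlap, mutant 4 was the highest mutant, and the log2 fold change was -2.14 (SE 0.32, adjusted p = 0.000764). Plxna2, a receptor of Sema6a, held 861, 924, 1034, 1014 and 1367 in WT embryos and 473, 471, 330.4, 534 and 571 in mutants. It too had no overlap (log2 fold change -1.13, SE 0.17, adjusted p = 0.000681). Plxna3, a partner of neuropilins, fell from 259 ± 20.4 to 128 ± 45.4 (-1.12, SE 0.28, adjusted p = 0.0138). Plxnb2, a receptor of Sema4c and the plexin with the highest level per kb (479 ± 65.7 in WT embryos), fell from 3697 ± 507 to 2342 ± 406 (-0.67, SE 0.13, adjusted p = 0.00405).

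The plexins that were not called were Plxna1 (log2 fold change -0.45, SE 0.16, adjusted p = 0.0558), Plxna4 (0.29), Plxnd1 (0.53) and Plxnc1. Plxnc1, the receptor of Sema7a, held 69.4, 47.3, 87.4, 59.6 and 135 in WT embryos and 35.9, 15.3, 41.5, 80.8 and 36.1 in mutants. Mutant 4 was within the WT range and the others below it, and the log2 fold change was -1.0 (SE 0.41, adjusted p = 0.0934), or -1.28 (SE 0.37, adjusted p = 0.0227) without mutant 4. Per kb, the neuropilins together with plexins summed to 1150 ± 116 in WT embryos and 953 ± 144 in mutants. Within that sum the share of Nrp2 went from 5.99% ± 0.515 to 18.3% ± 3.64, that of Nrp1 from 9.48% ± 1.78 to 17.3% ± 3.87, and that of Plxnb1 from 8.56% ± 1.83 to 2.5% ± 1.18.

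Slits: all 3 Slit genes fell. Slit1 held 117, 136, 139.7, 100 and 98.6 scaled counts in WT embryos 1 to 5 and 6.61, 23.9, 26.9, 65.7 and 19.0 in mutants 1 to 5. Slit1 groups did not overlap, and the log2 fold change was -2.33 (SE 0.46, adjusted p = 0.00357). Slit2 held 219, 229.5, 191, 234 and 317 in WT embryos and 70.8, 63.2, 26.9, 234 and 56.0 in mutants. Mutant 4 was inside the WT range, and the other 4 mutants were below it. For Slit2 the log2 fold change was -1.75 (SE 0.44, adjusted p = 0.0129), or -2.18 (SE 0.28, adjusted p = 0.000168) without mutant 4. Slit3, the most abundant Slit per kb (117 ± 29.6 in WT embryos and 55.9 ± 11.5 in mutants), held 611, 747, 546, 631 and 1002 in WT embryos and 356, 219, 368, 351 and 402 in mutants. Every mutant was below every WT embryo, and the log2 fold change was -1.05 (SE 0.20, adjusted p = 0.0028). Summed per kb, the Slits went from 146 ± 29.8 to 64.2 ± 13.4.

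Robos: the Slit receptors changed in opposite directions. Robo2 (chr16:73891839-74411825, minus strand) held 35.1, 21.1, 76.1, 84.9 and 36.6 scaled counts in WT embryos 1 to 5 and 712, 380.1, 737, 601 and 724 in mutants 1 to 5. All mutants, mutant 4 included, were above all WT embryos. The log2 fold change was 3.75 (SE 0.35, adjusted p = 4.12e-05), a ratio of means of 12.4. Robo1, also on chromosome 16 (chr16:72308306-73046095, plus strand), held 781, 685, 819.9, 685 and 807 in WT embryos and 401, 276, 372, 559.9 and 496 in mutants. Here all mutants were below all WT embryos, and the log2 fold change was -0.88 (SE 0.17, adjusted p = 0.00382).

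Robo3, a divergent Robo known for steering axons across the midline, was 61.0 ± 27.9 scaled counts in WT embryos. No read was counted in mutants 1, 2, 3 and 5, which allows up to 2.83 to 3.36 scaled counts there, and mutant 4 had 32.3, within the WT range. The log2 fold change was -4.79 (SE 0.92, adjusted p = 0.00327) by limma and -3.23 by edgeR and DESeq2, where it was not called (adjusted p = 0.0598 and 0.16). Without mutant 4 Robo3 stood at -5.80 (SE 0.48, adjusted p = 6.26e-06) by limma. Robo4, the endothelial Robo, was low in both groups, at 6.57 to 31.2 and 14.2 to 26.6, and was not called (log2 fold change 0.20, SE 0.41, adjusted p = 0.755).

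Per kb, the 4 Robos summed to 61.1 ± 6.63 in WT embryos and 67.2 ± 14.2 in mutants, with overlapping ranges. Their make-up differed: Robo1 was 75.2% ± 6.11 of that sum in WT embryos and 37.9% ± 4.35 in mutants, Robo2 was 4.86% ± 2.66 and 55.3% ± 6.69, and Robo3 was 14.2% ± 5.44 and 1.23% ± 2.74. In mutant 4 Robo2 was 45.9% and Robo1 44.0%, and in the other mutants Robo2 was 52.2% to 62.4%. The ranges of Robo1 and of Robo2 did not overlap between groups.

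**Figure D4:**
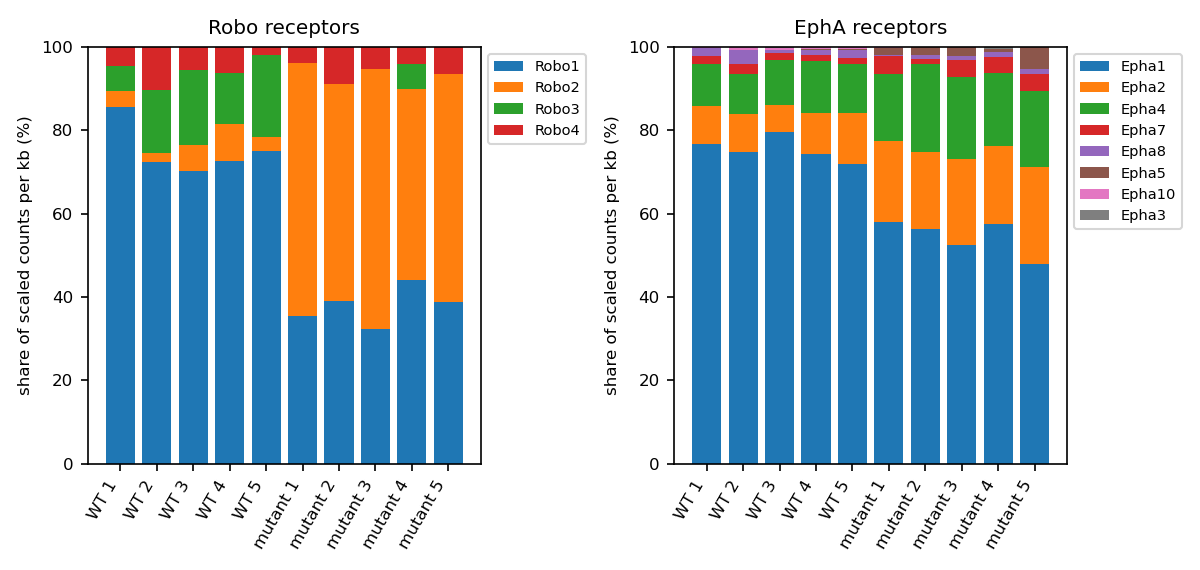
Share of each Robo (left) and each class A Eph receptor (right) in the summed scaled counts per kb of exon, by embryo. Robo2 was 2.17% to 8.76% of the Robo level in WT embryos and 45.9% to 62.4% in mutants; Epha1 was 72% to 79.5% of the class A Eph level in WT embryos and 47.8% to 58.1% in mutants.

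Netrins and Unc5 receptors: of the 3 netrins listed, Ntn1, the founding secreted netrin, fell. Ntn1 (chr11:68209364-68400823, minus strand) held 344, 380.4, 443, 536 and 729 scaled counts in WT embryos 1 to 5 and 13.2, 22.0, 10.1, 386 and 6.65 in mutants 1 to 5. Mutants 1, 2, 3 and 5 were far below the WT embryos, and mutant 4 lay within the WT range. For Ntn1 the log2 fold change was -4.21 (SE 0.85, adjusted p = 0.00419) with mutant 4 and -5.19 (SE 0.33, adjusted p = 1.07e-06) without it. With edgeR and DESeq2 on all 10 embryos it was -2.48 and -2.47 and missed the threshold (adjusted p = 0.0822 and 0.0619). Summed paraxial mesoderm, ectoderm and node markers were likewise lowest in mutants 1, 2, 3 and 5. In mutant 4 these sums were 3181, 1412 and 1231, in between and below the WT range, unlike Ntn1. The epiblast sum of mutant 4 (15691) lay among those of the other mutants. The part of these markers in the Ntn1 values was not tested.

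Ntn4, a more distant netrin, was not called (log2 fold change -1.29, SE 0.82, adjusted p = 0.272). Its values were 10.9, 8.05, 2.27, 20.2 and 32.9 in WT embryos and 7.55, 0, 3.36, 19.2 and 2.85 in mutants, with overlap. Ntn5 was under the level for testing, at 1.67 to 12.1 in WT embryos and 0 to 8.96 in mutants.

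Unc5c, a repulsive netrin receptor, rose. It held 237, 220.4, 296, 387 and 303 scaled counts in WT embryos 1 to 5 and 1020, 918, 852, 336 and 938 in mutants 1 to 5. Mutant 4 was within the WT range and the other 4 mutants were more than 2-fold above the highest WT embryo. For Unc5c the log2 fold change was 1.42 (SE 0.28, adjusted p = 0.00389), or 1.71 (SE 0.17, adjusted p = 2.01e-05) without mutant 4. Unc5a went the other way, from 41.0 ± 18.3 to 12.7 ± 19.0 (log2 fold change -3.11, SE 1.01, adjusted p = 0.0408). Mutant 4 was within the WT range of Unc5a, and the value without it was -3.94 (SE 0.82, adjusted p = 0.00395). The Unc5a call did not hold with edgeR or DESeq2 (-1.71 and -1.69, adjusted p = 0.239 and 0.245). It was also lost without WT 1, 2, 4 or 5 or mutant 1, 2 or 5 (adjusted p = 0.0535 to 0.0976). Unc5b, the Unc5 receptor of endothelium and the most abundant of the family per kb (159 ± 36.1 in WT embryos), was not called (log2 fold change 0.34, SE 0.15, adjusted p = 0.125). Unc5d was under the level for testing, at 7.99 ± 3.16 and 7.56 ± 6.71 scaled counts.

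**Figure D5:**
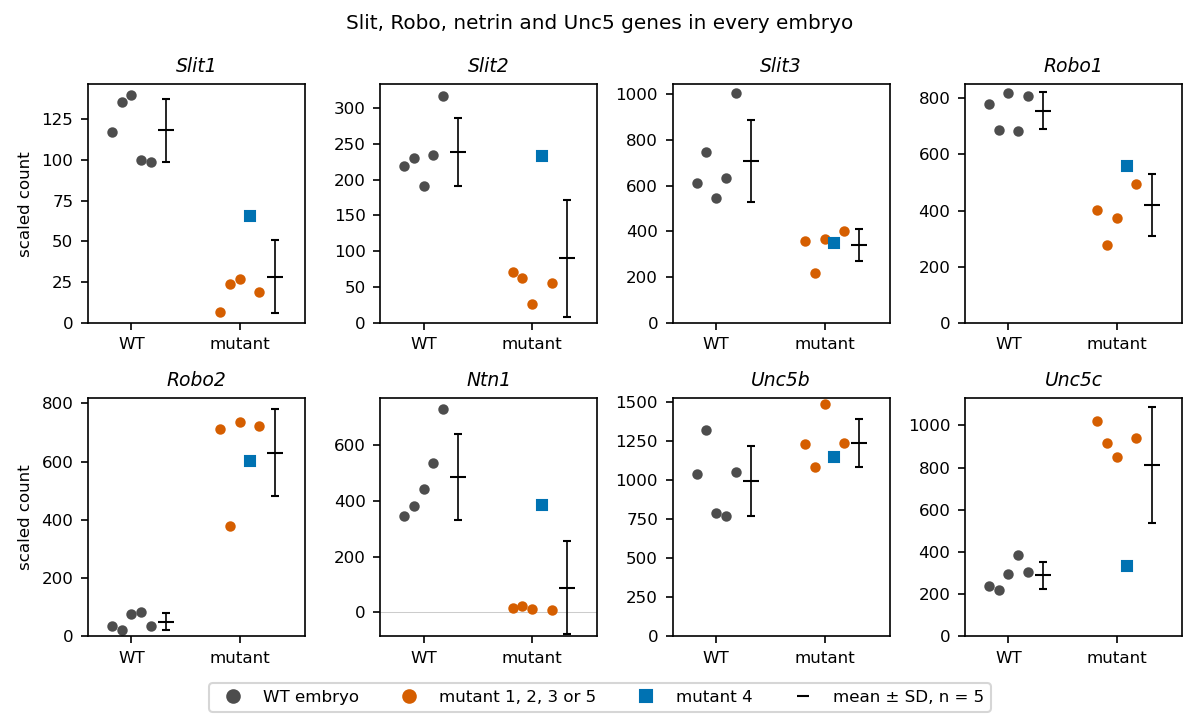
Scaled counts of Slit, Robo, netrin and Unc5 genes in every embryo, with the mean ± SD of each group (n = 5); mutant 4 is a square. Robo2 was higher and Slit1, Slit3 and Robo1 lower in every mutant than in every WT embryo, while mutant 4 lay within the WT range for Slit2, Ntn1 and Unc5c.

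Ligands and receptors that bind each other were set side by side for 25 pairs. In 5 pairs both fell: Efnb2 with Ephb4, Sema6a with Plxna2, Slit1 with Robo1, Slit2 with Robo1, and Ntn1 with Unc5a. In 2 pairs the ligand fell and the receptor rose: Slit2 with Robo2 and Ntn1 with Unc5c. A pair with both members higher could not arise, because Efnb3, the only ligand called higher with all embryos, was in none of the pairs. In 5 pairs only the ligand fell, in 3 only the receptor fell, in 2 only the receptor rose, and in 5 neither was called. The rest held a gene not tested or not listed. Of all ligands tested 40% were lower, and of all receptors 44.8%, so some pairs with both lower can arise without a link between partners. Such a link was not tested. The calls of Ntn1 and Unc5a did not hold with edgeR or DESeq2. Pairs share genes (Ntn1 is in 3 of them), so they are not independent.

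Other guidance ligands and receptors, beyond these families, were read from a list of 21 genes, of which 16 were tested, 2 rose and 5 fell (median log2 fold change -0.31). These are 12.5% higher and 31.2% lower, against 11.4% and 13.8% of all genes tested, so the share that rose was near the background. Rgma, a membrane-anchored ligand of neogenin, fell from 464 ± 105 to 90.4 ± 91.7 scaled counts (-2.75, SE 0.45, adjusted p = 0.00131). Cntn2, an axonal adhesion molecule, had no reads in mutants 1, 2, 3 and 5, 14.2 in mutant 4 and 57.4 to 85.4 in WT embryos (-5.37, SE 0.71, adjusted p = 0.000366). Ntng1 (-2.41), Adgrl1 (-0.49) and Adgrl2 (-0.95) were also lower, as log2 fold changes. L1cam, an adhesion molecule of axons and a partner of neuropilins, rose from 88.0 ± 19.3 to 261 ± 87.0 (1.52, SE 0.25, adjusted p = 0.00139), and the integrin Itgb1 rose by a log2 fold change of 0.41. Dcc, the attractive netrin receptor, was at 5.18 ± 7.76 scaled counts in WT embryos and 3.47 ± 4.29 in mutants and was not tested, and neogenin (Neo1) was not called (-0.38, SE 0.14, adjusted p = 0.0604).

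Intracellular effectors of guidance receptors formed a list of 47 genes, all tested, of which 6 rose and 9 fell (median log2 fold change -0.11). At 12.8% higher and 19.1% lower, against 11.4% and 13.8% of all genes tested, the share that rose was near the background. The largest decreases were in Dpysl5 (-3.61, SE 0.55, adjusted p = 0.000933) and Crmp1 (-2.90, SE 0.47, adjusted p = 0.00126), relatives of the protein that relays semaphorin signals to microtubules. Dpysl5 went from 1270 ± 162 to 162 ± 190.4 scaled counts and Crmp1 from 1303 ± 432 to 231 ± 249.7. Another relative, Dpysl4, rose from 72.7 ± 38.0 to 296 ± 92.3 (2.07, SE 0.30, adjusted p = 0.000681). Mical2, an actin-oxidizing enzyme related to the plexin effector Mical1, rose (2.51, SE 0.41, adjusted p = 0.00125), while Mical1 fell (-0.88, SE 0.12, adjusted p = 0.000563). Tiam1 (1.05), Farp2 (1.08), Arhgef12 (0.46) and Adam10 (0.73), a protease that cleaves ephrins, were the other genes that rose. Ngef (-1.11), Grip1 (-0.95), Arhgef15 (-0.93), Vav2 (-0.78), Trio (-0.50) and Abl1 (-0.43) were the other genes that fell, all as log2 fold changes. Over both lists 14 genes fell with all embryos, 20 without mutant 4 and 9 without WT 5; 8, 7 and 7 rose. The call of Arhgef12 was lost without mutant 4.

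The libraries carry no strand, so reads of overlapping genes cannot be told apart. Exons on the opposite strand overlap those of the called genes Epha1 (Zyx), Epha10 (1700125G02Rik), Ephb1 (Gm26846), Ephb4 (Zan), Plxnb1 (Gm7628), Unc5a (Hk3) and Unc5c (Gm15688).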

How the data were processed

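Whole embryos at E7.5, 5 WT and 5 mutant, were sequenced in bulk after SMART-Seq v4 amplification, per the labels' protocols; the libraries mark no strand and carry no molecular identifiers. The deposited signal values are gene counts divided by a library factor; the submitters' processing notes name cutadapt 1.6, STAR 2.5.0a, HTSeq 0.5.3, DESeq and the build mm10. In each library all values (100.0% of 20006 genes) were whole multiples of 1 step within 0.01 reads, so reads were recovered for depth (20744547 to 28505209) and for edgeR and DESeq2. Floors of 3 reads cover counting error only, and confidence intervals are limma's, from the spread between embryos. All 10 columns of values were used (0 left out).

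Genes with a mean of at least 10 scaled counts were tested with limma 3.58.1 (R 4.3.3, intensity trend) on log2(scaled count + 1), mutant against WT, with Benjamini-Hochberg adjustment over all genes. For low genes a fold change on that scale depends on the pseudocount. It is also a difference between means of logs, so it can differ from one from reads where embryos of a group are uneven. Robo3, with reads in mutant 4 alone of the mutants, was -4.79 by limma and -3.23 by edgeR. Ntn1, at a WT mean of 486.5 scaled counts, was -4.21 and -2.48. Every adjusted p without another tool named is from limma. The 21 alternatives included edgeR 4.0.16 and DESeq2 1.42.0 on recovered reads, other pseudocounts, filters and scalings, a replicate block, and each embryo left out. Nothing says that embryos came from separate litters, so p-values measure the spread between these embryos. Same-numbered embryos did not deviate together (correlations -0.0787 to 0.0787), so the numbers were not treated as pairs.

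Genes and lists were chosen with earlier results of these data known. In each role group, values of every embryo are given for the 3 called genes with the largest log2 fold change among those with a mean of at least 50. Other called genes have group means ± SD (n = 5), and genes not called with a log2 fold change of at least 1 in size are named; values of Sema3f and of the ranges for Sema3a, Sema3e, Sema4c and Sema4d were added after seeing mutant 4. Positions and exon lengths are GENCODE M21 (GRCm38), matched on gene ID for 65 of 65 genes. Levels per kb use the union of a gene's exons, which can be longer than the transcript in use.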

Additional observations from a re-analysis of the deposited data

Results flagged for a closer look

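A single embryo lay far from the other 4 of its group for 22 of 118 gene and group combinations (gap to the nearest embryo over 0.71 of the group's range). That cutoff gives about 1 in 20 for independent normal values. Scaled counts need not be normal and the genes share the same embryos, so the 22 cannot be set against that rate. Mutant 4 was the embryo in 15 of them, 13 times as the highest mutant. These were Ephb2 (285.0 scaled counts, next mutant 130.2), Sema3a (139.5, next 40.83), Sema3e (912.6, next 301.0) and Sema3f (3710, next 513.8). Sema4c (2445, next 605.9), Sema4d (1378, next 574.5), Sema5b (62.66, next 12.32), Sema6d (396.2, next 84.01) and Sema7a (502.3, next 53.18) did the same. So did Plxnd1 (644.8, next 179.2), Slit2 (233.5, next 70.78), Robo3 (32.34, next 0) and Ntn1 (386.1, next 22.02). Mutant 4 was the lowest mutant for Efna4 (526.6, next 792.7) and Unc5c (335.5, next 852.4).

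Of the other embryos, mutant 2 was low for Epha7 (46.91, next 145.6) and Slit3 (219.2, next 350.7), mutant 1 was high for Epha10 (6.606, others 0), and mutant 5 was high for Epha5 (337.1, next 130.2). Among WT embryos, WT 1 was low for Ephb6 (187.2, next 319.3) and Sema4f (30.09, next 41.26), and WT 3 was high for Sema5a (354.3, next 248.5).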

How the results depend on the processing

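Across the 21 alternatives 5 to 8 guidance genes were higher and 20 to 31 lower, and 25 of the 32 called genes kept their call in every alternative that gave them a value. The other 7 lost it in at least 1: Ephb1, Sema4f, Unc5a, Nrp1, Robo3, Ntn1 and Epha8. None changed direction. With the replicate block 6 were higher and 23 lower; Sema4f, Nrp1 and Unc5a lost their call (adjusted p = 0.0526, 0.0528 and 0.0702). Embryos with the same number correlated best with each other for 2 of 5 numbers. Of the other guidance genes and effectors, 9 to 20 were lower (14 with all embryos) when 1 embryo was left out, and 7 to 9 higher. The 9 came without WT 5; the cause was not tested. A mean of at least 50 removes genes, so fewer had a value. Fold changes of Epha10, Robo3 and Unc5a shrank with a pseudocount of 5 (to -2.21, -3.01 and -1.93). The median log2 fold change of all genes was 0.01, -0.02 with TMM and -0.03 with upper-quartile scaling. A count of 0 allows up to 2.51 to 3.41 scaled counts.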

Other observations

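Mutant 4 also stood apart in genes that work with the guidance receptors; these were picked after their values were seen. The integrin Itga1 was 527.6 scaled counts in mutant 4, 35.9 to 80.7 in the other mutants and 27.6 to 67.0 in WT embryos. Limk1, a kinase that acts on actin below semaphorin receptors, was 2604 in mutant 4, 655 to 858 in the other mutants and 607 to 917 in WT embryos. Fes, a kinase that binds plexins, was 645.8 in mutant 4, 36.1 to 77.4 in the other mutants and 83.9 to 196 in WT embryos. Vasp, an actin-binding protein, was 4389, 2237 to 2689 and 2388 to 3134. None of the 4 was called with all 10 embryos.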
